A study of Mus musculus with 16 samples.

Results

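The cyclins, the cyclin-dependent kinases (CDKs), their inhibitors and activators, the E2F transcription factors and the pocket proteins were followed in mouse lung after 72 h of ozone. The set was a fixed list of 44 genes, and each gene was read from its brightest probe set with a single gene symbol, by the mean over all arrays. A probe set with a single symbol was found for 41 of the 44 genes, out of 12393 genes measured in all. Ccnb1, Cdkn3 and E2f2 had none and were not analysed here. The 41 genes fell by role into 8 classes: G1, S and mitotic cyclins and kinases, kinase phosphatases with Wee1 and the Cks subunits, CDK inhibitors, E2F factors with their partner Tfdp1, pocket proteins, and cyclins and kinases of transcription or atypical function.

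RNA from the lungs of 16 mice was hybridised to 16 Affymetrix arrays. The sample titles speak of whole lung RNA, while the extract protocol names the left lung as what was homogenised. Wildtype C57BL/6 mice and mice genetically deficient in adiponectin, a hormone of fat cells, of that same background strain and a mean age of 14 weeks, breathed either room air or ozone at 0.3 ppm, and lungs were taken right after the exposure. Each of the 4 groups (wildtype air, wildtype ozone, deficient air and deficient ozone) held 2 male mice (M1 and M2) and 2 female mice (F1 and F2). The labels describe the deficiency no further, and no source used here says how it was made.

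A cell enters division when D-type cyclins with Cdk4 or Cdk6 phosphorylate the pocket proteins, which releases E2F factors from repression. E2F with its partner then raises the E and A cyclins that drive S phase with Cdk2, and Cdk1 with the A and B cyclins drives mitosis. CDK inhibitors hold these kinases back, and few cells of an adult lung divide until injury calls for replacement of the lining cells. Many S phase genes carry E2F sites in their promoters, while many mitotic genes carry a cell cycle homology region (CHR) and CCAAT boxes.

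The promoters of 7 members are shown, picked after the motif search as examples of the CHR with CCAAT arrangement and of E2F sites. They come from RefSeq on GRCm38.p6 and run from base -150 to base 20 relative to the annotated start, 5′ to 3′ along the gene, and 30 of the 41 measured genes matched an entry, with 35 promoter stretches between them. Capitals mark every match, on either strand, to the E2F sites TTTCCCGC, TTTCGCGC, TTTGCCGC or TTTGGCGC, to the CHR letters TTTGAA or TTCGAA, and to CCAAT, and in the members' promoters no match overlapped a match to another motif. The first 4 are genes of G2 and mitosis or their Cks partner, with Cdk1 at chr10:69352893-69353062 on the minus strand, Ccnb2 at chr9:70421535-70421704 on the minus strand, Ccnf at chr17:24251390-24251559 on the minus strand and Cks1b at chr3:89418272-89418441 on the minus strand.
Cdk1: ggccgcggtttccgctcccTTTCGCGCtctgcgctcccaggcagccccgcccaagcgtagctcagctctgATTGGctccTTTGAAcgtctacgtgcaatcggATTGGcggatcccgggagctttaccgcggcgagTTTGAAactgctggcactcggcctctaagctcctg
Ccnb2: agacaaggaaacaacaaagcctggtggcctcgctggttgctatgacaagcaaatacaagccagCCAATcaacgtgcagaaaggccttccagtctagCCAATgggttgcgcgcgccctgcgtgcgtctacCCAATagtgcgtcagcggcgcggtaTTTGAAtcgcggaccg
Ccnf: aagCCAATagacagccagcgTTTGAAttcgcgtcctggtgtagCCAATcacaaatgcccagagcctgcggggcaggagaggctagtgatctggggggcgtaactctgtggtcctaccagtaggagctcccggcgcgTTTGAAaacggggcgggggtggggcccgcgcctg
Cks1b: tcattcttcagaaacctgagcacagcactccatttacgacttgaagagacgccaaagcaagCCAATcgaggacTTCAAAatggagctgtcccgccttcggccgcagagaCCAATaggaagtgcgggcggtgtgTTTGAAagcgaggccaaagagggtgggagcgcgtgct
The next 3 are an S phase kinase, a pocket protein and the E2F partner, which hold an E2F site, with Cdk2 at chr10:128705032-128705201 on the minus strand, Rbl1 at chr2:157204515-157204684 on the minus strand and Tfdp1 at chr8:13338601-13338770 on the plus strand (the first of its 2 stretches).
Cdk2: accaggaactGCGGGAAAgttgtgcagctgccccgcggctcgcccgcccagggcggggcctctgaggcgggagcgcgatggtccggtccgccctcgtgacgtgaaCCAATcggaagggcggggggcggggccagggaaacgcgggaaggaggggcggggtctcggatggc
Rbl1: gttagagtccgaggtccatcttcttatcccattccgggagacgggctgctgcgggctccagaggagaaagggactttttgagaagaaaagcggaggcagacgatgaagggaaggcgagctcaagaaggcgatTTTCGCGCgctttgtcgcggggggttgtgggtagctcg
Tfdp1: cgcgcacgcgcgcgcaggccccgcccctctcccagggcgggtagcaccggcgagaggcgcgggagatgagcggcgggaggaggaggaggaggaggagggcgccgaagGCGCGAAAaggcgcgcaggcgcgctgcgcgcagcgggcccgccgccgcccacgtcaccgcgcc
The Cdk1 stretch held 1 E2F site, 2 CHR matches and 2 CCAAT matches. In Cdk1 the CHR match nearest the start began at base -15, in Ccnf at base -14 and in Cks1b at base -17, while in Ccnb2 it began at base 5, after the start. All 3 mitotic promoters held a CHR match and a CCAAT match within the 300 bases listed by RefSeq. Over the 32851 promoter stretches of that table, 19.2% held a CHR match, 37.4% a CCAAT match and 2.26% an E2F site. Among the members' 35 stretches, CHR was in 10 (28.6%), CCAAT in 17 (48.6%) and E2F in 8 (22.9%). In the G1 class none of 4 stretches held a CHR or E2F match, and 1 held CCAAT. In the S class 1 of 2 stretches held an E2F match. CHR matches also lay in Cdc25b, E2f3, E2f8, Cdkn2b, Rbl2 and Ccni, while the Cks2 stretch held CCAAT alone. These are letter matches, described with no test.

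The arrays were of like brightness, with medians of 145.9 to 153.7 intensity units. The lung epithelium markers stood between 12.85 and 13.25 log2 intensity, as a mean over 8 genes, on all 16 arrays, so the labelled tissue was seen on each. Other tissues appeared on 3 air arrays. The mean of 5 fat markers was 8.12 on wildtype air F1 and 7.42 on the library labelled deficient air F2, against 5.34 to 6.02 on the ozone arrays. On deficient air M2, the mean of 6 skeletal muscle markers was 9.51 and of 4 squamous epithelium markers 10.26, against at most 5.84 and 5.86 on the ozone arrays. Adipoq, the gene of adiponectin, read 6.07 to 6.36 in deficient ozone and 7.70 to 8.76 in wildtype ozone. In air it read 7.19 to 11.52 in wildtype and 6.32 to 8.82 in deficient mice. The library labelled deficient air F2, at 8.82, thus lay within the wildtype range, and this gene alone did not bear out its label. That array carried fat markers, and wildtype air F1, the other array with fat, read 11.52. The part of fat in these readings was not tested. The descriptive text of wildtype ozone F1 speaks of room air, but its other fields name ozone, and the array was kept there. For the counts after ozone and by sex, and for some single genes, results are also given without the 3 air arrays that carried other tissues. Y-linked genes on female arrays, which carry no such transcript, read 3.82 to 4.46 (3 genes), so Cdkn2a (4.36 to 4.68 on all arrays) lay close to that reading, and the lowest values of the other dim genes were 4.73 for Cdc25c, 4.81 for Ccne2, 4.90 for Cdk6 and 5.16 for E2f3. Changes are log2 differences ± SE of the limma fit over all 12393 genes, with 4 arrays a group and p-values adjusted by Benjamini-Hochberg over all genes.

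After ozone, 25 of the 41 genes changed in wildtype lung, 19 of them higher and 6 lower. Of all genes measured, 36.7% changed in that comparison, 19.6% higher and 17.1% lower. The mitotic genes Cdk1 and Ccnb2 and the S phase cyclin Ccna2 had the largest changes, all 4 S phase genes rose, and of the 5 G1 genes 3 rose, by 0.40 to 0.64. In deficient lung 24 genes changed, 20 higher and 4 lower, against 30.3% of all genes, 15.8% higher and 14.6% lower. Ozone and air arrays did not overlap for 24 of the 41 genes in wildtype (31.4% of all genes) and for 22 in deficient lung (28.7% of all genes). The median change of the 41 genes was 0.18 in wildtype and 0.22 in deficient lung, against 0.03 and 0.01 for all genes. In both genotypes 5 of the 41 genes changed at least 2-fold (12.2%), against 1.36% of all genes in wildtype and 1.41% in deficient lung. Without the 3 air arrays that carried other tissues, 24 genes were called in wildtype and 21 in deficient lung, and without wildtype ozone F1, 24 in wildtype. Leaving those 3 air arrays out moved the changes of the 41 genes by at most 0.11 in wildtype (Cks2) and 0.14 in deficient lung (Ccna2). In RNA of unsorted lung tissue, more dividing cells and more transcript per cell cannot be told apart.

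**Figure D1:**
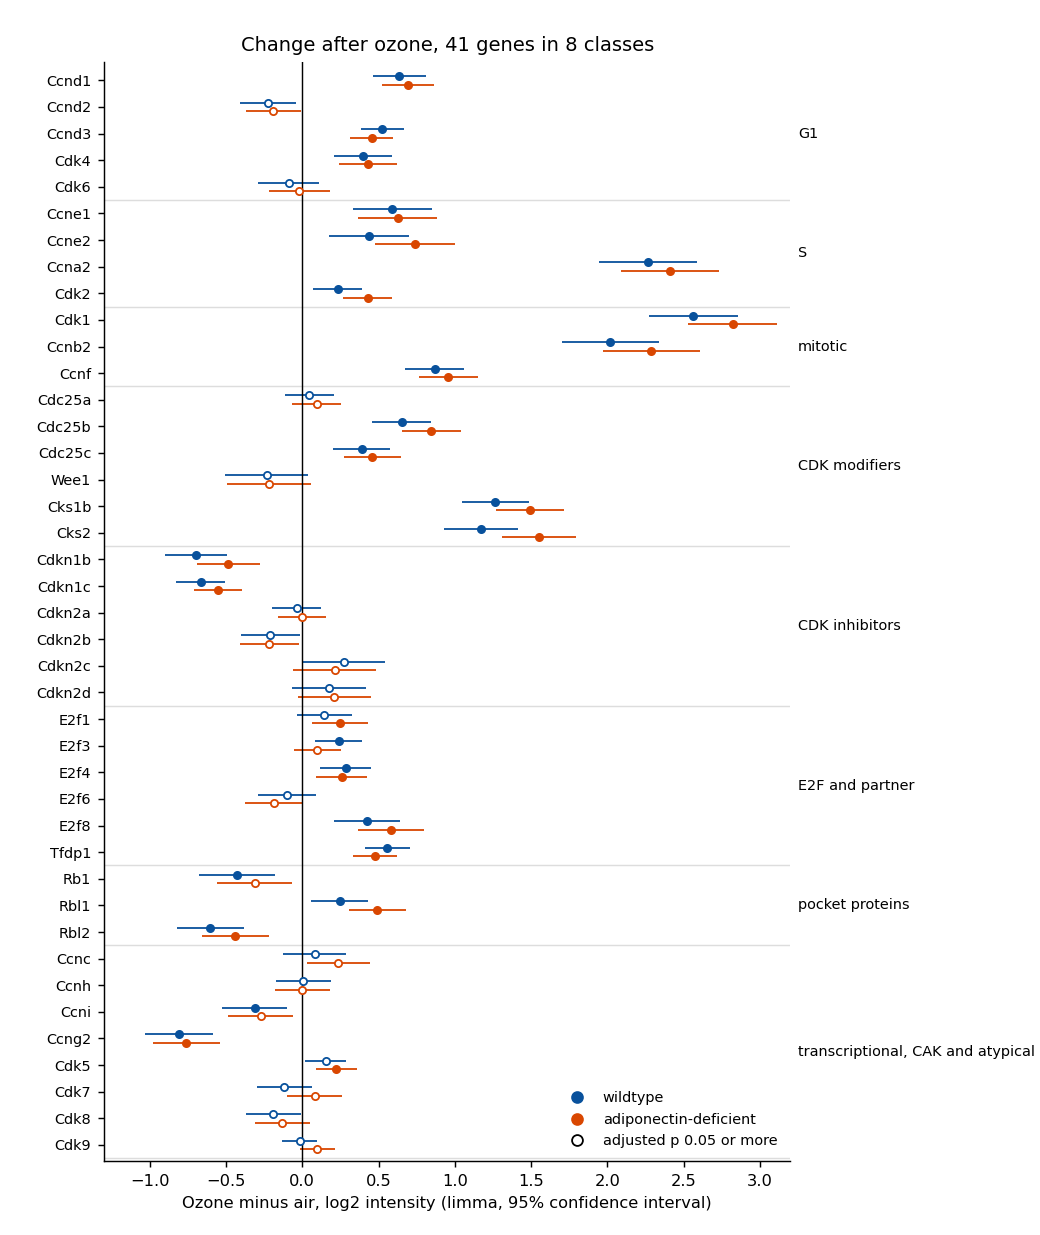
Change after ozone of each of the 41 genes, grouped by class, as the log2 difference between ozone and air with its 95% confidence interval, for wildtype (blue) and adiponectin-deficient (orange) lung, with open points where the adjusted p was 0.05 or more. Cdk1, Ccna2 and Ccnb2 lie above 2 in wildtype, the G1 genes between -0.22 and 0.64.

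The order of the classes by the median change was mitotic, then the Cks and phosphatase class, S, G1, E2F, transcriptional, inhibitors and pocket proteins in wildtype. In numbers, the mitotic class had a median of 2.02 in wildtype and 2.29 in deficient lung, over 3 measured genes. The class of phosphatases and Cks subunits had 0.52 and 0.65 (6 genes). The S class had 0.51 and 0.68 (4 genes), the G1 class 0.40 and 0.43 (5 genes), and the E2F class 0.26 and 0.25 (6 genes). The median was below 0 for the inhibitors, at -0.12 and -0.11 (6 genes), and for the pocket proteins, at -0.43 and -0.31 (3 genes). The transcriptional and atypical class had -0.067 and 0.041 (8 genes), where 2 genes fell in wildtype, and in deficient lung 1 rose and 1 fell. On single arrays, the mean of the 3 mitotic genes stood 1.73 to 1.97 above the wildtype air mean in wildtype ozone and 1.82 to 2.21 above it in deficient ozone. The mean of the 5 G1 genes stood 0.21 to 0.30 and 0.17 to 0.27 above it. The ozone arrays of the mitotic class lay above every air array, whose highest mean was 0.30.

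**Figure D2:**
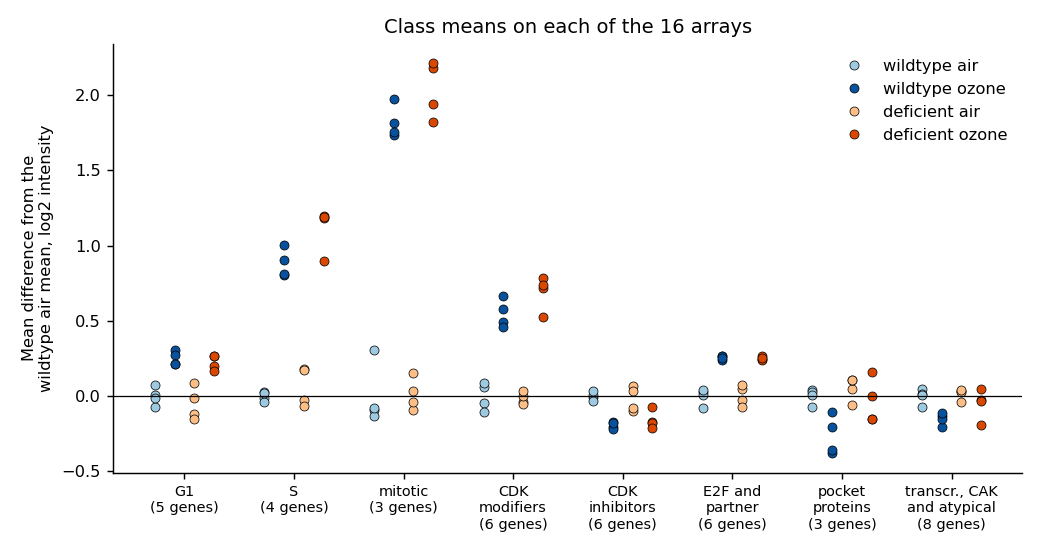
Mean difference from the wildtype air mean, in log2 intensity, of the genes of each class on each of the 16 arrays (1 point per array). The mitotic class reaches 1.73 to 2.21 on the ozone arrays of both genotypes, the G1 class 0.17 to 0.30.

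Cdk1, the kinase of mitosis, read 6.37, 6.52, 6.60 and 6.82 in wildtype air and 9.44, 9.01, 9.06 and 9.06 in wildtype ozone, listed here and below as M1, M2, then the females F1, F2. The deficient mice gave 6.58, 6.78, 6.33 and 6.58 in air and 9.53, 9.36, 9.04 and 9.62 in ozone. Every ozone array stood above every air array, and wildtype ozone M1 was the highest of its group. The change was 2.56 ± 0.14 in wildtype, a 5.91-fold rise (adjusted p = 1.44e-08), and 2.82 ± 0.14 in deficient lung, a 7.07-fold rise (adjusted p = 3.61e-09). Ccnb2, a B-type cyclin that pairs with Cdk1, rose by 2.02 ± 0.15 and 2.29 ± 0.15 (adjusted p = 3.42e-07 and 6.7e-08). Ccnf, an F-box subunit of a ubiquitin ligase and not an activator of a CDK, rose by 0.87 ± 0.090 and 0.96 ± 0.090 (adjusted p = 9.54e-06 and 2.9e-06). All 3 measured mitotic genes thus rose in both genotypes. Without the 3 air arrays that carried other tissues, Cdk1 rose by 2.58 and 2.93 and Ccnb2 by 1.95 and 2.34.

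Of the S phase genes, Ccna2, the A-type cyclin of S and G2, read 5.81, 5.52, 5.82 and 5.92 in wildtype air and 7.94, 7.81, 8.10 and 8.28 in wildtype ozone. In deficient mice it read 6.32, 5.60, 6.01 and 6.19 in air and 8.60, 8.36, 8.11 and 8.71 in ozone. The air and ozone arrays did not overlap. The change was 2.27 ± 0.15 and 2.41 ± 0.15, or 4.81-fold and 5.32-fold (adjusted p = 1.42e-07 and 4.34e-08). Ccne1, an E-type cyclin that opens S phase with Cdk2, rose by 0.59 ± 0.12 and 0.62 ± 0.12 (adjusted p = 0.00164 and 0.00121). Ccne2, the other E-type cyclin, was dim and rose by 0.44 ± 0.12 and 0.74 ± 0.12 (adjusted p = 0.0122 and 0.00037). Cdk2, their kinase, read 7.32 to 7.64 in wildtype ozone against 7.15 to 7.33 in wildtype air, so its groups overlapped. It rose by 0.23 ± 0.076 in wildtype (adjusted p = 0.0264) and 0.43 ± 0.076 in deficient lung (adjusted p = 0.000613). Cdk2 no longer passed in wildtype when one of the air arrays M1 (adjusted p = 0.064), F1 (0.0568) or F2 (0.0628) or the ozone array M1 (0.0974) was left out, or the 3 air arrays with other tissues (0.0572).

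**Figure D3:**
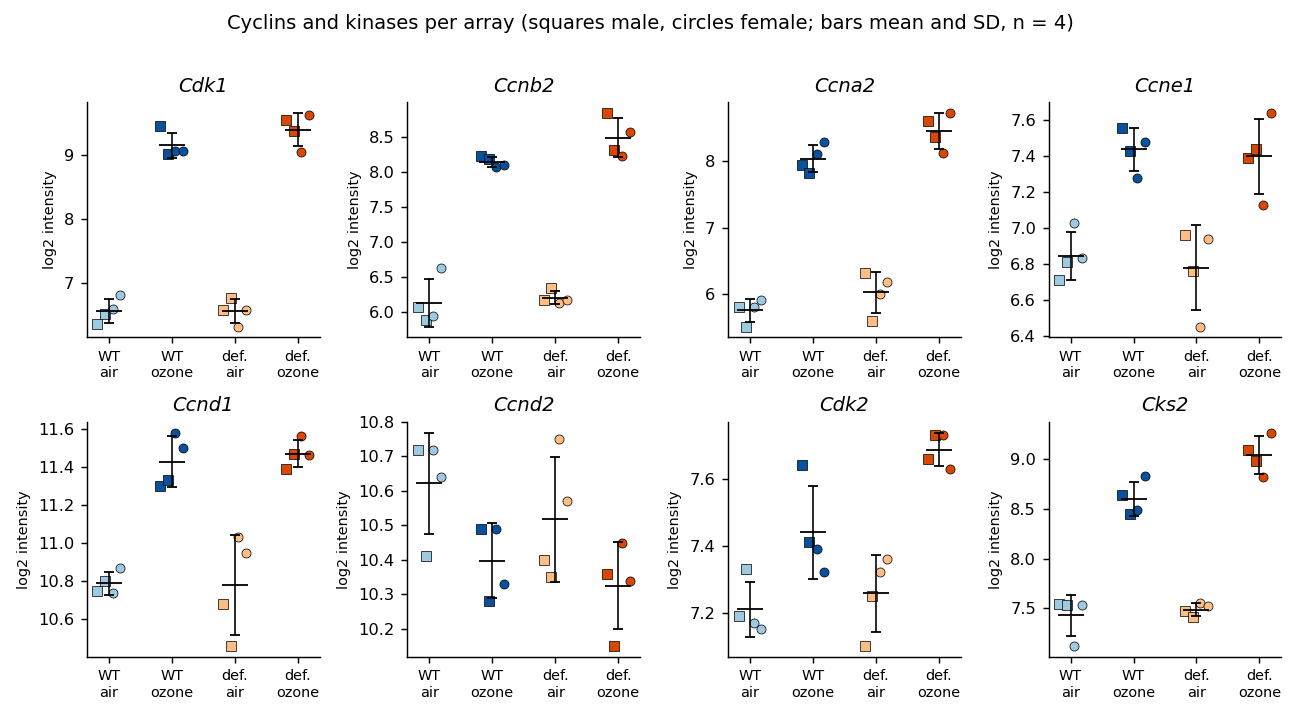
Log2 intensity per array of Cdk1, Ccnb2, Ccna2, Ccne1, Ccnd1, Ccnd2, Cdk2 and Cks2 in the 4 groups (squares male, circles female), with the mean and SD of 4 arrays. Cdk1 goes from 6.37 to 6.82 in wildtype air to 9.01 to 9.44 in wildtype ozone, while Ccnd2 lies between 10.15 and 10.75.

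Of the G1 genes, Ccnd1, a D-type cyclin, read 10.75, 10.80, 10.74 and 10.87 in wildtype air and 11.30, 11.33, 11.58 and 11.50 in wildtype ozone. The deficient mice gave 10.68, 10.46, 11.03 and 10.95 in air and 11.39, 11.47, 11.56 and 11.46 in ozone. Every ozone array was above every air array. The change was 0.64 ± 0.080 and 0.69 ± 0.080 (adjusted p = 4.52e-05 and 2.07e-05). Another of its probe sets, the dimmest of 3, gave 0.25 in wildtype (adjusted p = 0.0876, in the fit of every probe set) and rose by 0.37 in deficient lung (adjusted p = 0.0168). Ccnd3, the other risen D-type cyclin, rose by 0.53 ± 0.066 and 0.45 ± 0.066 (adjusted p = 4.53e-05 and 0.000138). Cdk4, their kinase, rose by 0.40 ± 0.089 and 0.43 ± 0.089 (adjusted p = 0.00311 and 0.00198). Cdk6, a dim alternative kinase, gave -0.088 ± 0.094 and -0.020 ± 0.094 (adjusted p = 0.491 and 0.897).

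Ccnd2, the remaining D-type cyclin, gave differences of the opposite sign to Ccnd1 and Ccnd3 that did not pass the test. Its brightest probe set read 10.41 to 10.72 in wildtype air and 10.28 to 10.49 in wildtype ozone, and 10.35 to 10.75 and 10.15 to 10.45 in deficient lung. The difference was -0.22 ± 0.085 in wildtype (adjusted p = 0.0506) and -0.19 ± 0.085 in deficient lung (adjusted p = 0.104). It passed in wildtype without wildtype air M2 (adjusted p = 0.0314), wildtype ozone M1 (0.0236) or deficient air F1 (0.0418), without the dimmest genes of the whole table (0.0464) and with an intensity trend and robust prior (0.0445). It passed in both genotypes as a mean of all its probe sets (0.00638 and 0.0388) and with the replicate number as a block (0.0170 and 0.0400). It stayed uncalled in 21 of 28 alternatives in wildtype and in 26 of 28 in deficient lung. These include the threshold of 0.01, which could not add a call. They also include omissions of single arrays of the other genotype, which left the difference itself unchanged. Without the 3 air arrays that carried other tissues, the adjusted p was 0.109 in wildtype and 0.128 in deficient lung. Ccnd2 has 7 probe sets here, and all 7 gave a difference below 0 in both genotypes. Fitted with every probe set, 4 of the 7 were lower in wildtype and 3 in deficient lung, where 37.2% and 30.3% of all probe sets changed. The largest such fall was -0.53 in wildtype (adjusted p = 0.000503). The 7 probe sets share their gene and are not replicates.

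The Cks subunits, small proteins that bind CDKs, were read next. Cks1b, which also helps a ubiquitin ligase to recognise the inhibitor Cdkn1b, read 8.87, 8.44, 8.79 and 9.0 in wildtype air and 10.11, 9.95, 10.07 and 10.03 in wildtype ozone. In deficient mice it read 8.93, 8.93, 8.79 and 9.13 in air and 10.51, 10.41, 10.28 and 10.55 in ozone. All ozone arrays stood above all air arrays. The change was 1.27 ± 0.10 and 1.49 ± 0.10 (adjusted p = 1.01e-06 and 1.61e-07). Cks2 rose by 1.17 ± 0.11 and 1.55 ± 0.11 (adjusted p = 4.86e-06 and 2.5e-07). Cdc25b, a phosphatase that removes the inhibitory phosphate from CDKs, rose by 0.65 ± 0.090 and 0.85 ± 0.090 (adjusted p = 8.73e-05 and 8.89e-06). Cdc25c, another such phosphatase and dim here, rose by 0.39 ± 0.088 and 0.46 ± 0.088 (adjusted p = 0.00321 and 0.00109). Cdc25a, the third phosphatase, gave 0.045 ± 0.075 and 0.096 ± 0.075 in its brightest probe set, but its other probe set rose by 0.41 and 0.42 (adjusted p = 0.00179 and 0.00156, in the fit of every probe set). Wee1, the kinase that adds the inhibitory phosphate, gave -0.23 ± 0.13 and -0.22 ± 0.13 (adjusted p = 0.167 and 0.223). Of the 6 measured genes of this class, 4 thus rose in both genotypes and none fell.

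Of the 6 CDK inhibitors, 2 fell in both genotypes and 4 did not pass the test. Cdkn1b, which binds cyclin E and A complexes with Cdk2, read 8.97, 9.17, 9.14 and 8.95 in wildtype air and 8.28, 8.20, 8.31 and 8.64 in wildtype ozone. The deficient mice gave 9.0, 8.89, 8.98 and 9.27 in air and 8.65, 8.51, 8.58 and 8.47 in ozone. Every ozone array lay below every air array. It fell by 0.70 ± 0.097 in wildtype, a 1.62-fold change, and by 0.48 ± 0.097 in deficient lung (adjusted p = 9.02e-05 and 0.00148). Cdkn1c, another inhibitor of that Cip/Kip family, fell by 0.67 ± 0.074 and 0.55 ± 0.074 (adjusted p = 1.7e-05 and 7.3e-05). The INK4 inhibitors, which bind Cdk4 and Cdk6, gave -0.036 ± 0.075 and -0.0019 ± 0.075 for Cdkn2a, and -0.21 ± 0.090 and -0.22 ± 0.090 for Cdkn2b. The other two gave 0.27 ± 0.13 and 0.21 ± 0.13 for Cdkn2c, and 0.17 ± 0.11 and 0.21 ± 0.11 for Cdkn2d. Single arrays decided for some of these. Cdkn2c passed as higher in wildtype, at 0.38, without the 3 air arrays (adjusted p = 0.0175), and also without wildtype air F1 (0.0330) or wildtype ozone M2 (0.0476). Cdkn2b passed as lower in wildtype without wildtype ozone F2 (0.0443) and in deficient lung without deficient ozone M1 (0.0263).

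Of the 6 measured E2F genes and partners, 4 rose in each genotype, and E2f4, E2f8 and Tfdp1 in both. Tfdp1, the partner that dimerises with E2F factors, read 8.51, 8.52, 8.21 and 8.31 in wildtype air and 8.93, 9.13, 8.80 and 8.92 in wildtype ozone. In deficient mice it read 8.54, 8.44, 8.40 and 8.47 in air and 9.03, 9.05, 8.72 and 8.96 in ozone. The groups did not overlap, and the change was 0.56 ± 0.068 and 0.48 ± 0.068 (adjusted p = 3.6e-05 and 0.000118). E2f8, an atypical E2F that represses its targets late in S phase, rose by 0.42 ± 0.10 and 0.58 ± 0.10 (adjusted p = 0.00466 and 0.000543). E2f4, which acts with pocket proteins in resting cells, rose by 0.28 ± 0.078 and 0.26 ± 0.078 (adjusted p = 0.011 and 0.0209). Its deficient call was lost without the library labelled deficient air F2 (adjusted p = 0.0731), deficient ozone M2 (0.0621), F1 (0.0667) or F2 (0.0699), without the 3 air arrays (0.0931) or with the 2 compared groups alone (0.0686).

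The activator E2f1 gave 0.15 ± 0.086 in wildtype (adjusted p = 0.201) and rose by 0.25 ± 0.086 in deficient lung (adjusted p = 0.0392). E2f1 no longer passed when one of these was left out, namely deficient air M1 (adjusted p = 0.10), the library labelled deficient air F2 (0.136), deficient ozone M1 (0.116), F1 (0.0574) or F2 (0.121). Nor did it pass without the 3 air arrays (0.0693), with the 2 compared groups alone (0.115) or with the replicate number as a block (0.0508). The other E2f1 probe set, which was dimmer, rose by 0.38 in deficient lung (adjusted p = 0.00124, in the fit of every probe set). In wildtype that probe set gave 0.16 (adjusted p = 0.103). The activator E2f3 rose by 0.24 ± 0.072 in wildtype (adjusted p = 0.0179) and gave 0.10 ± 0.072 in deficient lung (adjusted p = 0.330). E2f3 no longer passed in wildtype with air array M2 left out (adjusted p = 0.0653), with ozone array M2 left out (0.0510), and after another quantile normalization, where the change was 0.16 (0.0945). The repressor E2f6 gave -0.10 ± 0.088 and -0.19 ± 0.088 (adjusted p = 0.399 and 0.125).

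Of the pocket proteins, Rbl2 fell and Rbl1 rose in both genotypes. Rbl2, which represses E2F targets in resting cells, read 8.66, 8.96, 8.71 and 8.78 in wildtype air and 8.05, 8.12, 8.22 and 8.33 in wildtype ozone. The deficient mice gave 8.77, 8.75, 8.75 and 8.81 in air and 8.64, 8.12, 8.39 and 8.17 in ozone. Its ozone arrays lay below its air arrays in both genotypes, with deficient ozone M1 the nearest to air. It fell by 0.60 ± 0.10 and 0.44 ± 0.10 (adjusted p = 0.000437 and 0.00458). Rb1, the retinoblastoma protein, fell by 0.43 ± 0.12 in wildtype (adjusted p = 0.00996) and gave -0.31 ± 0.12 in deficient lung (adjusted p = 0.0537). The latter passed when wildtype air M2 (adjusted p = 0.0456), wildtype ozone M1 (0.0268), deficient air M2 (0.0415) or deficient ozone M1 (0.0196) was left out. Without the 3 air arrays, Rb1 gave -0.36 in deficient lung and did not pass (adjusted p = 0.103). In wildtype it still passed without them (0.0302). Rbl1, which is made in cycling cells, went the other way. It rose by 0.25 ± 0.088 in wildtype (adjusted p = 0.0400) and by 0.49 ± 0.088 in deficient lung (adjusted p = 0.00067). Rbl1 no longer passed in wildtype with air array M2 (adjusted p = 0.138) or F1 (0.0624) left out. The same held with ozone array M1 (0.140), F1 (0.0698) or F2 (0.0874) left out. Nor did it pass there without the 3 air arrays (0.0733), without the sex term (0.0518) or with the 2 compared groups alone (0.0775). The other Rbl1 probe set, dim at a mean of 4.91, was fitted with every probe set. It rose by 0.32 in wildtype and 0.38 in deficient lung (adjusted p = 0.00748 and 0.00274).

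**Figure D4:**
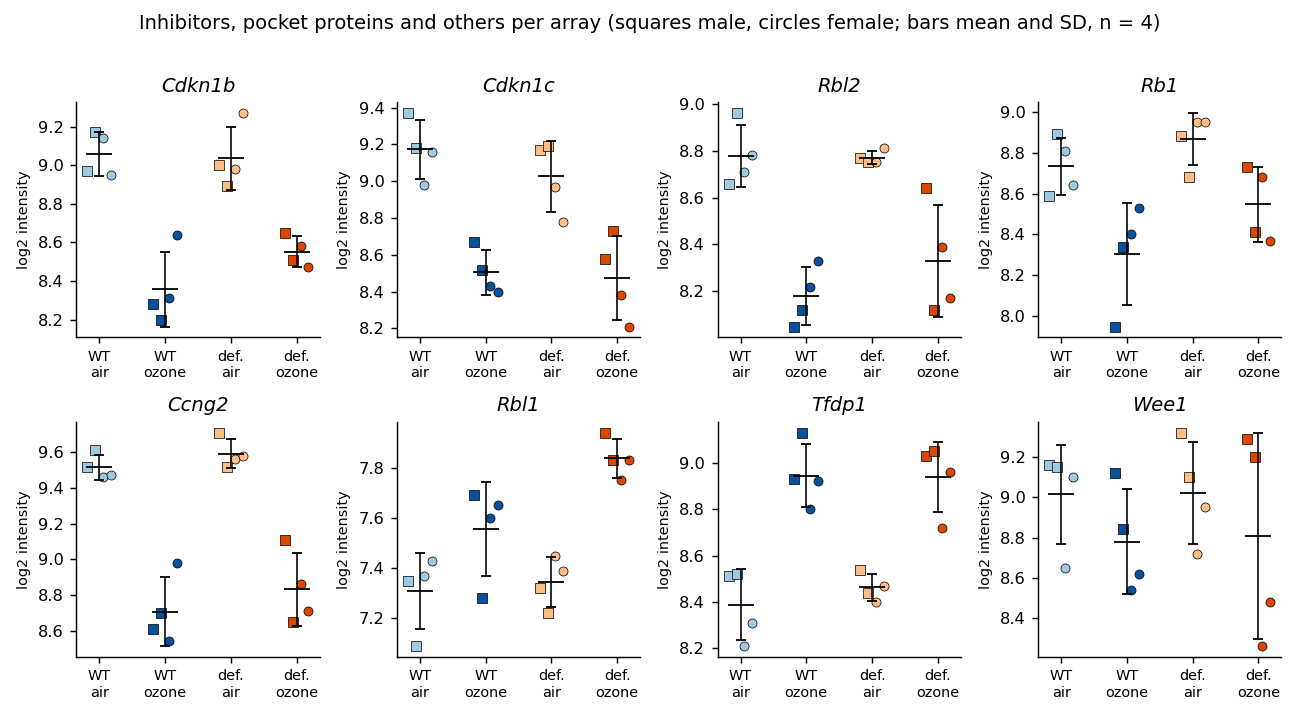
Log2 intensity per array of Cdkn1b, Cdkn1c, Rbl2, Rb1, Ccng2, Rbl1, Tfdp1 and Wee1 in the 4 groups (squares male, circles female), with the mean and SD of 4 arrays. Cdkn1b lies between 8.89 and 9.27 on the air arrays and between 8.20 and 8.65 on the ozone arrays.

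Among the 8 genes of transcription and atypical function, Ccng2, an atypical cyclin made in arrested cells, read 9.52, 9.61, 9.46 and 9.47 in wildtype air and 8.61, 8.70, 8.54 and 8.98 in wildtype ozone. In deficient mice it read 9.71, 9.52, 9.56 and 9.58 in air and 9.11, 8.65, 8.86 and 8.71 in ozone. All ozone arrays lay below all air arrays, and the fall was 0.81 ± 0.10 and 0.76 ± 0.10 (adjusted p = 5.05e-05 and 8.25e-05). By the brightest probe sets it was the largest fall of the 41 genes in both genotypes. The dimmer Ccng2 probe set fell by 0.46 and 0.59 (adjusted p = 0.0163 and 0.00456, in the fit of every probe set). Ccni, another atypical cyclin, fell by 0.31 ± 0.10 in wildtype (adjusted p = 0.0235) and gave -0.27 ± 0.10 in deficient lung (adjusted p = 0.0505). Ccni no longer passed in wildtype with air array M2 (adjusted p = 0.0813) or F1 (0.0661) or ozone array M1 (0.0669) or M2 (0.0563) left out, without the 3 air arrays (0.0730), or as a mean of all probe sets (0.106). In deficient lung it passed with wildtype air M2 (0.0480) or F2 (0.0449), deficient air M1 (0.04998) or deficient ozone M1 (0.0189) left out. Without the 3 air arrays, Ccni gave -0.21 in deficient lung and did not pass (adjusted p = 0.246). Cdk5, a kinase best known from neurons, gave 0.15 ± 0.062 in wildtype (adjusted p = 0.0677, or 0.0289 and 0.0331 under the other scalings) and rose by 0.22 ± 0.062 in deficient lung (adjusted p = 0.0136). That call was lost without the 3 air arrays (adjusted p = 0.0535), with the compared groups alone (0.0507) and as a mean of its 2 probe sets (0.240).

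Cdk7 and Ccnh, which form the CDK-activating kinase, gave differences of -0.12 ± 0.086 and 0.081 ± 0.086 for Cdk7, and of 0.0068 ± 0.085 and 0.0011 ± 0.085 for Ccnh. Cdk8 and Ccnc of the Mediator complex gave -0.19 ± 0.084 and -0.13 ± 0.084 for Cdk8, and 0.081 ± 0.097 and 0.23 ± 0.097 for Ccnc. Cdk9, which releases paused polymerase, gave -0.018 ± 0.055 and 0.099 ± 0.055. None of these 5 kinases and cyclins passed the test in either genotype with all arrays. Cdk8 passed in wildtype when wildtype air F1 (adjusted p = 0.0381), deficient air F1 (0.0486) or the 3 air arrays (0.0393) were left out, and Ccnc in deficient lung without deficient air M1 (0.0310). The probe sets of Ccnh and Ccnc did not agree, in the fit of every probe set. The dimmest of 3 for Ccnh gave -0.47 in wildtype and -0.55 in deficient lung (adjusted p = 0.00614 and 0.00235). For Ccnc, a dimmer probe set gave -0.37 in wildtype (adjusted p = 0.0165) and -0.28 in deficient lung (0.0652).

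In the pathway around the members, 32 of 42 further genes were measured. Of these, 18 changed in wildtype (11 higher, 7 lower) and 13 in deficient lung (10 higher, 3 lower). Of all genes, 19.6% were higher and 17.1% lower in wildtype, and 15.8% and 14.6% in deficient lung. The largest rises in wildtype were those of Cdc20, an activator of the anaphase-promoting complex, by 2.39 ± 0.15, of the mitotic kinase Plk1 by 1.57 ± 0.13 and of the inhibitor Cdkn1a by 1.36 ± 0.19. In deficient lung the same genes gave 2.67 ± 0.15, 1.72 ± 0.13 and 1.14 ± 0.19. The largest falls in wildtype were -0.54 ± 0.11 for Cdk14, -0.41 ± 0.087 for E2f5 and -0.37 ± 0.088 for Ccnl2. In deficient lung they were -0.43 ± 0.11 for Cdk14, -0.35 ± 0.095 for Cdk12 and -0.30 ± 0.088 for Ccnl2. Cdkn1a, the third of the Cip/Kip inhibitors, thus rose where Cdkn1b and Cdkn1c fell.

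The proliferation markers Mki67, Top2a and Pcna, as a mean of 3 genes, stood at 7.61 to 8.03 on the air arrays and 9.5 to 10.26 on the ozone arrays, and all 3 rose in both genotypes. Cell composition was read from other markers. The mean of 6 thymus markers lay between 5.19 and 5.40 in every group. The mean of 4 B cell markers ranged from 7.70 to 8.82 in air and from 6.79 to 8.22 in ozone, the mean of 4 T cell markers from 6.88 to 7.57 and from 6.75 to 7.55, and the mean of 6 macrophage markers from 8.65 to 9.25 and from 8.27 to 9.45. The mean of 4 neutrophil markers ranged from 7.40 to 8.77 in air and from 7.86 to 8.56 in deficient ozone. In wildtype ozone it ranged from 7.32 to 12.29, with the highest on M2. By the test, 3 of the 8 lung epithelium markers were higher in both genotypes, 1 of the 4 B cell markers was lower in both, and 1 of the 4 T cell markers was lower in wildtype and 1 higher in deficient lung. Of the 6 thymus markers, 1 was higher and 1 lower in wildtype and 0 passed in deficient lung, and 0 of the 6 macrophage and 0 of the 4 neutrophil markers passed in either. The part of these cells in the changes of the 41 genes was not tested.

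In adiponectin-deficient lung, most of the genes called in wildtype were called as well. In all, 22 were called in both genotypes, which is 88% of the wildtype calls and 91.7% of the deficient calls, and none of the 22 moved in opposite directions. Over all genes, 2995 were called in both, 65.9% of the wildtype and 79.6% of the deficient calls, and again none in opposite directions. E2f3, Rb1 and Ccni were called in wildtype lung alone, and E2f1 and Cdk5 in deficient lung alone, and 14 genes in neither. In 15 of the 22 (68.2%) the change was farther from 0 in deficient lung, as in 50.7% of the 2995. The difference between the changes was itself tested, and none of the 41 genes passed limma's test, nor did any of the 12393 genes (0%). For Cdk1 the difference of the changes was 0.26 ± 0.19, with a 95% confidence interval from -0.15 to 0.67, for Ccna2 0.15 ± 0.21 (-0.31 to 0.60), for Ccnd1 0.055 ± 0.11 (-0.19 to 0.30) and for Cdkn1b 0.21 ± 0.14 (-0.078 to 0.50). At an unadjusted p under 0.05 there was 1 gene of the 41, Cks2, at 0.38 ± 0.16 (adjusted p = 0.983), and 605 of all genes. The difference was above 0 for 33 of the 41 genes (80.5%) and for 48.7% of all genes, and the 41 genes are not independent of each other. That count joins larger rises with smaller falls. For Cdkn1b, Cdkn1c, Rbl2 and Ccng2, which fell in both genotypes, a difference above 0 was a smaller fall in deficient lung.

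In room air, none of the 41 genes passed limma's test between the genotypes (0.00807% of all genes did), and none had an unadjusted p under 0.05, where 732 of all genes had. The differences of the 41 genes lay between -0.15 and 0.26. These values include the air arrays that carried other tissues. After ozone, none of the 41 genes passed (0.0161% of all genes), but 7 had an unadjusted p under 0.05, all of them higher in deficient lung. That is 17.1% of the 41 genes against 11.2% of all genes. The ozone arrays are those that also enter the ozone changes and their difference. The 7 were Cks2 (0.44 ± 0.11), Cks1b (0.40 ± 0.10), Ccna2 (0.41 ± 0.15), Ccnb2 (0.34 ± 0.15), Ccne2 (0.32 ± 0.12), Rbl1 (0.28 ± 0.088) and Cdk2 (0.25 ± 0.076), with adjusted p from 0.241 to 0.401. The ozone arrays of the genotypes did not overlap for 4 of the 41 genes, Ccnb2, Cks1b, Rbl1 and Cdk7, against 5.49% of all genes. In Cks1b they lay at 9.95 to 10.11 in wildtype and 10.28 to 10.55 in deficient lung. In Ccnb2, the highest wildtype and the lowest deficient array both read 8.23 when rounded. In Cks2, the wildtype arrays at 8.45 to 8.83 and the deficient arrays at 8.82 to 9.27 overlapped slightly.

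Both sexes were in every group, and 4 of the 41 genes were lower in female than in male lung, Wee1, Cdkn1c, Cdkn2d and Tfdp1, where 5.66% of all genes differed. Wee1 ranged from 8.84 to 9.32 in males (median 9.15, n = 8) and from 8.26 to 9.10 in females (median 8.64, n = 8), and in all 4 groups both females lay below both males. The difference was -0.48 ± 0.091 (adjusted p = 0.00866) and was -0.51 without the 3 air arrays (adjusted p = 0.0206). Cdkn1c gave -0.26 ± 0.053 (adjusted p = 0.0111), Cdkn2d -0.33 ± 0.079 (adjusted p = 0.0280) and Tfdp1 -0.17 ± 0.048 (adjusted p = 0.0492). Without the 3 air arrays, the last 3 gave adjusted p = 0.0557, 0.0531 and 0.0733. Leaving out 1 array ended the call of Cdkn2d in 7 cases (adjusted p from 0.0508 to 0.0605). These were wildtype air M2 and F1, deficient air M1 and F1, wildtype ozone F1 and F2, and deficient ozone M1. For Tfdp1 it ended the call in 12 cases (0.0619 to 0.0993), all but deficient air M2, the library labelled deficient air F2, wildtype ozone M1 and deficient ozone F2. These 4 calls rest on the brightest probe sets. In the fit of every probe set, dimmer ones of Ccnd1 (0.26, adjusted p = 0.00789) and Ccnd2 (0.20 and 0.26, adjusted p = 0.0160 and 0.0229) were higher in females. Dimmer ones of Wee1 (-0.73, adjusted p = 0.000169), Ccng2 (-0.35, 0.0349) and Ccnc (-0.22, 0.0445) were lower. Clock genes, looked at after the values were seen, also differed by sex. Of 10, Cry1 (-0.89 ± 0.12), Per2 (-0.96 ± 0.14) and Tef (-0.36 ± 0.073) were lower and Nr1d1 (1.06 ± 0.19) and Arntl (0.55 ± 0.13) higher in females. Their part in the Wee1 difference was not tested. In the test of whether the ozone change differs by sex, none of the 41 genes passed (0.00807% of all genes did), and 3 (7.32%) had an unadjusted p under 0.05, against 8.65% of all genes.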

How the data were processed

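The authors' deposited intensities, 1 per probe set and array, were made with RMA (robust multi-array averaging) per the submitters' processing notes, with version and settings not given in the sources used here. They were on a linear scale, from 11.1 to 26974.7, and log2 was taken. Of 22690 probe sets, 64 controls were left out, and 20380 with a single symbol gave 12393 genes by their brightest probe set. Arrays were fitted together in limma 3.58.1 (R 4.3.3) with 4 groups and sex, or with 8 groups for ozone by sex, and genes were called at an adjusted p under 0.05 over all genes. No count of reads exists for arrays, so their number, 4 a group, limits precision. The labels give 1 mouse per array. The fit was tested on simulated data.

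The members and lists were chosen with earlier results of these data known. Every member was named, and values of every array were given for the member that changed most after ozone in wildtype in each class. The further members given by array ranges and the dimmer probe sets, those of Ccnd2 among them, were chosen after their values were seen. So were the 7 genes higher in deficient ozone and the clock genes. Promoter sequences and gene symbols came from RefSeq tables. Alternatives were other normalizations, probe set rules, models and each array left out. Motifs were searched in Python 3.11.15 (pandas 2.3.3), and figures were drawn by matplotlib 3.10.9.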

Additional observations from a re-analysis of the deposited data

Results flagged for a closer look

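A total of 7 single arrays stood apart from the other 3 of their group, by a gap above Dixon's 95% critical value. With 164 groups of 4 arrays looked at, 7 is 4.27%, and chance flags about 1 in 20. Cdk1 in wildtype ozone M1 read 9.44 against 9.01 to 9.06, Cks2 in wildtype air F1 read 7.12 against 7.53 to 7.54, and Wee1 in wildtype air F1 read 8.65 against 9.10 to 9.16. Cdc25a in deficient air F1 read 7.74 against 7.51 to 7.53, Cdkn2a in deficient ozone F1 read 4.36 against 4.58 to 4.59, Cdkn2b in deficient ozone M2 read 8.49 against 8.85 to 8.87, and Cdk7 in wildtype ozone M2 read 7.85 against 7.94 to 7.96. The causes were not tested.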

How the results depend on the processing

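Over all alternatives, the number of genes called after ozone was 19 to 27 in wildtype and 21 to 26 in deficient lung, and no called change turned sign. Of the calls, 21 of 25 in wildtype and 21 of 24 in deficient lung kept their side of the threshold under each alternative at the same threshold that tested them. These were 27, or 26 for Ccne2 and Cdc25c, which are among the dimmest genes left out in 1 of them. Counts for genotype, interaction and ozone by sex stayed 0. Leaving out 1 array gave 23 to 27, 22 to 26 and, for sex, 2 to 4 genes. The sex count of 4 was 1 at an adjusted p under 0.01 and 1 without the 3 air arrays. As a mean of all probe sets, Ccnh turned from 0.0068 to -0.22 in wildtype and from 0.0011 to -0.23 in deficient lung, where its probe sets differ. Deviations of same-numbered arrays from their group means correlated at -0.04 to 0.35, over 0.1 in 18 of 24 pairs, but these arrays also share their sex, and within each sex the correlations were -0.148 to 0.13, so the arrays were not taken as paired. With the replicate number as a block 26 and 24 genes were called, with Ccnd2 added in both genotypes (adjusted p = 0.0170 and 0.0400) and E2f1 lost in deficient lung (0.0508). A common median moved the median of all genes to 0.05 in wildtype. No detection calls were used here, which limits what dim genes show.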
